A study of Arabidopsis thaliana with 18 samples.

Results

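The 150 genes described here were those with higher transcript levels after a far-red enriched photoperiod (FRP) in the wild type and in the tfl1 mutant, and little change in the ft mutant. They were chosen from measured values. Counts of each library were divided by the library's total over genes and scaled to a total of 1000000 counts (CPM), and L was the log2 ratio of the mean CPM of the 3 treated libraries to that of the 3 untreated libraries of a genotype, with 0.5 CPM added to both. Of the 37336 genes counted, 16929 reached a mean of at least 5 CPM in at least 1 of the 6 conditions and are called expressed here. L in ft lay between -0.25 and 0.25 for 9061 of them. These were ranked by the smaller of L in the wild type and L in tfl1, and the first 150 were kept.

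RNA came from shoots of 42-day-old Arabidopsis thaliana plants grown in short days, harvested after all leaves and roots had been cut away. The 3 genotypes were the wild type (WT, Columbia), ft-10 (ft), an insertion mutant of the florigen gene FT, and tfl1-1 (tfl1), a mutant of TERMINAL FLOWER 1. Each genotype was sampled without FRP (0 h, untreated) and after 24 h of FRP begun at the end of the short day, with 3 replicate libraries a condition and 18 in all. Each replicate was bulk shoot tissue, so that fewer cells of a type and less RNA per cell cannot be told apart.

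FT and TFL1 are related proteins that act through the same bZIP transcription factor, FD. FT is made in leaves under long photoperiods or far-red rich light, moves to the shoot apex and promotes flowering, whereas TFL1 keeps the apex and its branches vegetative or indeterminate. The genes below include disease resistance receptors, which guard the cell against pathogens, the enzymes of RNA silencing and DNA methylation, chromatin regulators that hold genes in an active or inactive state, and the large motor and scaffold proteins of the cytoskeleton.

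Between 20470477 and 35851716 reads were counted on genes per library. FT had 11 to 36 counts in the 6 libraries labelled ft, 0 in all 6 WT libraries and 0 to 3 in tfl1, and TFL1 had 1461 to 1647 counts in treated tfl1 against 297 to 451 in treated WT, so the counts of neither gene showed a loss in its own mutant. Replicate 1 of untreated WT stood apart from its own replicates 2 and 3. In the other 5 conditions replicate 3 was close to a mix of replicates 1 and 2: its count shares deviated from the best mix (42% to 63% of replicate 1) by a mean square of 1.12 to 1.45 times the counting variance over at least 16736 genes, against 2.49 to 32.5 when replicate 1 or 2 was set against the others. Whether replicate 3 shares material with the other replicates was not tested. P-values that treat replicate 3 as a separate sample measure a spread that may be too small. The counts of calls below are therefore also given with replicate 3 left out of those 5 conditions (13 libraries). They are given too with untreated WT replicate 1 left out of these 13 as well. The study selected its 12 libraries, 2 a condition, after a principal component analysis of the data. The spread among those 12 may therefore also be too small. Of 6 root markers RHD6 and PLT1 were at 0 CPM in every condition, EXP7 was at 0 in 5 of the 6, and COBL9 and the phosphate transporter gene PHT1;1 averaged at most 1.88 CPM, whereas SCR, which shoots also express, averaged 27.6 to 33.5 CPM and made up most of the list's sum of 24.0 to 37.4. The floral organ markers, 7 genes, summed to 2.99 to 5.85 CPM. Leaf and green tissue markers, 8 genes, summed to 3783 to 5712 CPM in untreated WT and 1128 to 1855 in treated WT, to 4736 to 5207 and 1368 to 1738 in tfl1, and to 4734 to 4885 and 3427 to 3738 in ft. The shoot meristem markers, 6 genes, summed to 199 to 245 CPM in untreated and 460 to 558 in treated WT, to 261 to 276 and 497 to 553 in tfl1, and to 229 to 229.8 and 410 to 443 in ft. Phloem and xylem markers, 5 genes, summed to 73.6 to 89.1 and 197 to 259 CPM in WT, 96.0 to 109 and 113 to 208 in tfl1, and 87.9 to 97.3 and 102 to 141 in ft. The part of these marker lists in the results below was not tested.

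L of the 150 genes ran from 1.40 to 2.95 in WT with a median of 1.73, from 1.40 to 2.24 in tfl1 with a median of 1.56, and from -0.22 to 0.25 in ft with a median of 0.09. Over all expressed genes the medians were 0.06, 0.09 and -0.04. Because these values chose the genes, they are a description and carry no test. In WT every one of the 150 genes had its 3 treated libraries above its 3 untreated ones, as did 36.0% of all expressed genes, and in tfl1 147 did so against 43.5%. In ft 2 genes, ARF4 and SUVR1, did so against 27.5%. L was higher in WT than in tfl1 for 106 genes and lower for 44, with a median difference of 0.18.

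The genes at the limits had values close to those left out. ARF4, AT1G19485 and SUVR1 ranked 148 to 150 with a smaller L of 1.3966, 1.3964 and 1.3963, and the next genes, AT1G35660, AT5G19420 and RLM3, had 1.3952, 1.3946 and 1.3924. Just inside the bounds in ft lay XIK at 0.2492 and AT3G45090 at -0.2206, and just outside lay AT5G61190 at 0.2524 and FAB1D at -0.2504. Before the bounds in ft were applied, 494 expressed genes had a smaller L past the rank limit, of which 337 had L in ft above the window and 7 below it.

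**Figure D1:**
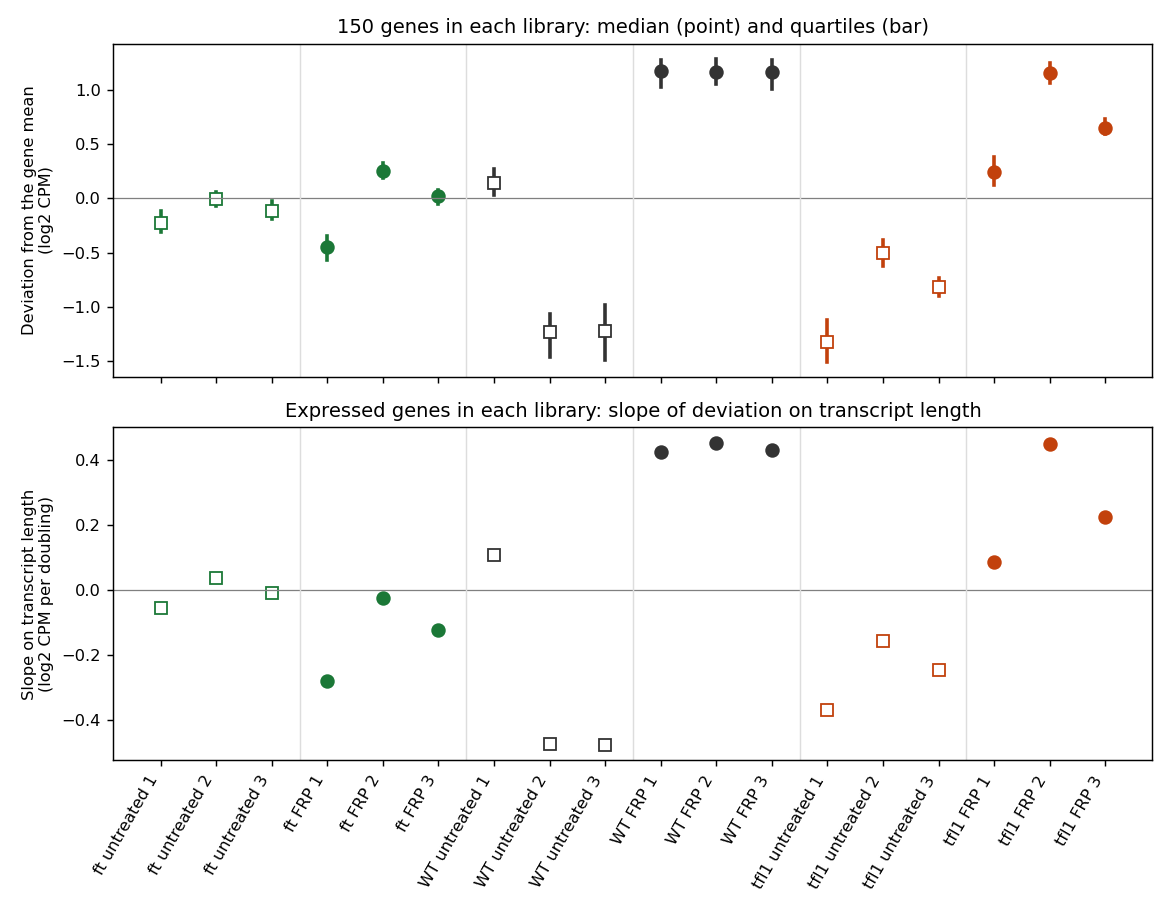
Level of the 150 genes (top; log2 deviation from each gene's mean over 18 libraries, median and quartiles) and slope of all expressed genes on transcript length (bottom; log2 CPM per doubling of length), by library. The 3 treated WT libraries are at 1.17 on the top panel, untreated WT replicate 1 is at 0.14 and replicates 2 and 3 are near -1.22.

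Library by library, the median deviation of the 150 genes from their own means was 1.17, 1.17 and 1.17 in treated WT and 0.14, -1.23 and -1.22 in untreated WT. In tfl1 it was -1.32, -0.51 and -0.82 without treatment and 0.24, 1.16 and 0.65 with it. In ft it was -0.22, -0.00 and -0.12 without treatment and -0.45, 0.25 and 0.02 with it. Untreated WT replicate 1 lay above replicates 2 and 3 in all 150 genes, by a median of 2.69-fold, and below all 3 treated WT libraries in all 150. The share of expressed genes in which it lay above replicates 2 and 3 was not computed, and these libraries were used in the choice. Over all expressed genes it also differed from them in slope on transcript length (0.11 against -0.47 and -0.48). Without untreated WT replicate 1 the median L in WT was 2.36. All 6 ft libraries thus lay above the 3 untreated tfl1 libraries and untreated WT replicates 2 and 3, and below the 3 treated WT libraries. Untreated WT replicate 1 lay above 5 of the 6, and replicate 2 of treated ft lay level with replicate 1 of treated tfl1. Replicates 1 and 2 of treated ft differed more from each other than the treated and untreated means did.

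Among the first-ranked genes were a sensor gene, HK1, and a gene of a sugar signalling enzyme, TPS1. HK1 (AT2G17820, TAIR10.1 chr2:7742870-7748502, minus strand, 13 exons) encodes a membrane histidine kinase related to yeast osmosensors, and ranked first. Its CPM was 35.7, 15.3 and 16.97 in untreated WT and 93.2, 108 and 99.2 in treated WT. In tfl1 it was 9.198, 19.8 and 14.6 without and 44.8, 101 and 66.9 with FRP. The ft values were 28.7, 33.9 and 30.4 without and 23.1, 42.3 and 32.3 with FRP. The treated libraries of WT and tfl1 thus all lay above every other library, and treated ft spanned untreated ft on both sides. HK1 had L of 2.12 in WT, 2.24 in tfl1 and 0.07 in ft.

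TPS1 (AT1G78580, chr1:29552340-29560912, minus strand), the enzyme that makes trehalose-6-phosphate, a sugar signal needed for flowering, gave 56.2, 26.8 and 26.7 CPM in untreated and 175, 177 and 181 in treated WT. The corresponding tfl1 libraries had 17.6, 45.6 and 31.8 and 72.8, 161 and 106 CPM. Those of ft had 54.6, 65.3 and 60.98 and 45.9, 87.7 and 71.7 CPM. The L values of 2.27, 1.82 and 0.18 in WT, tfl1 and ft place it among the members with the higher WT values. Genes on the other strand overlap TPS1, and reads were counted without regard to strand. Reads that matched more than 1 gene were counted apart as ambiguous (3.03% to 3.77% of gene counts per library). CPM leaves them out, so the CPM of TPS1 may lack reads of the shared bases. LD (AT4G02560, chr4:1123475-1128490, minus strand), a homeodomain protein of the autonomous flowering pathway that lowers the floral repressor FLC, ran from 9.31 to 26.0 CPM in untreated WT and from 52.5 to 55.7 in treated WT. ARF4 (AT5G60450), an auxin response factor of organ polarity, had tighter replicates than most. It showed 91.2, 75.2 and 68.6 CPM in untreated WT, 214, 224 and 219.9 in treated WT, 88.02, 91.1 and 89.3 in untreated ft and 95.2, 107 and 105 in treated ft. It is 1 of the 2 genes whose 3 treated ft libraries all lay above the 3 untreated ones. ABCG29, AHA10, ACC2 and PLDALPHA2, which encode a transporter, a proton pump, an acetyl-CoA carboxylase and a phospholipase D, had L of 1.75 to 2.15 in WT and 1.51 to 1.83 in tfl1.

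**Figure D2:**
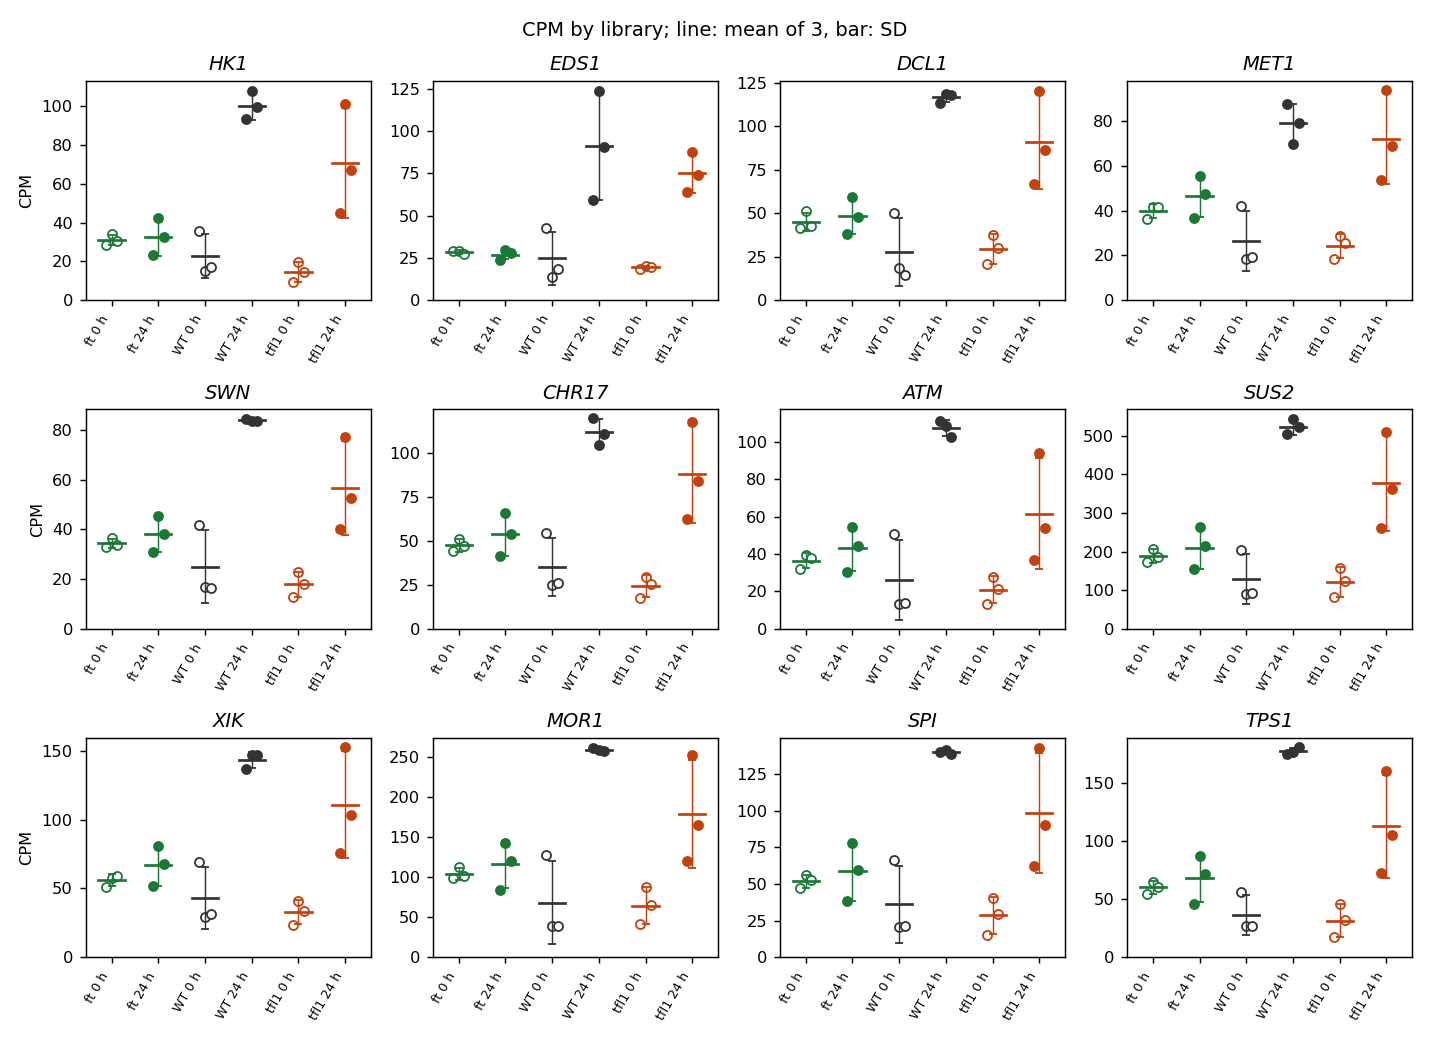
CPM of 12 of the 150 genes in each library (points; 0 h untreated, 24 h FRP), with the mean of 3 libraries (line) and its SD (bar). For every gene treated WT lies above untreated WT, and the ft means lie between those 2 levels.

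A group of 11 genes belongs to disease resistance. Of the 94 expressed genes whose product names disease resistance, 8 were members, which is 5.33% of the 150 against 0.56% of the expressed genes, and the median transcript of those 94 genes was 3852.5 nt long against 1784.5 nt for all expressed genes. EDS1 (AT3G48090, chr3:17755329-17758147, minus strand), the lipase-like protein through which TIR-type receptors signal, had 42.7, 13.7 and 18.2 CPM in untreated and 59.3, 124 and 90.6 in treated WT. In tfl1 the values were 18.5, 20.3 and 19.4 and 63.9, 87.4 and 73.7, and in ft 28.9, 29.3 and 27.3 and 23.8, 29.5 and 27.8. The ft values stayed within a narrow band, and in WT untreated replicate 1 came closest to the treated libraries. ADR1-L2 (AT5G04720), a helper receptor that works with EDS1, had L of 1.76, 1.75 and 0.25 in WT, tfl1 and ft. AT4G16960 (chr4:9547402-9551028, minus strand), a receptor gene of the TIR-NBS-LRR class, ranked second with L of 2.68, 2.09 and 0.17. Its untreated WT libraries had only 5.56, 0.909 and 1.399 CPM and its treated ones 14.3, 24.2 and 20.01 CPM. It lies 61 bases from AT4G16957, another member, and AT4G36140 and AT4G36150 overlap each other. Receptor genes of this class have close copies, so reads may be split between them and these pairs are uncertain as separate observations. RPS6, AT3G44670, AT1G72840, AT5G45060 and AT3G14470 complete the group, with L from 1.503 to 2.105 in WT, 1.41 to 1.70 in tfl1 and -0.08 to 0.19 in ft.

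RNA silencing and DNA methylation were represented by 6 genes. DCL1, the dicer that makes microRNAs (AT1G01040, chr1:23121-31227, plus strand), showed 49.9, 18.5 and 14.6 CPM in untreated and 113, 118 and 118 in treated WT. The values were 20.8, 37.5 and 30.2 and 66.6, 120.2 and 86.2 in tfl1, and 41.8, 51.2 and 42.7 and 38.2, 59.5 and 48.1 in ft. A gene on the other strand overlaps it by 788 bases. DCL3 and RDR2, the dicer and the RNA polymerase that make the small RNAs of RNA-directed DNA methylation, had L of 1.91 and 1.63 in WT, 1.69 and 1.88 in tfl1, and 0.21 and -0.03 in ft. MET1 (AT5G49160, chr5:19932114-19938470, plus strand), which maintains methylation at CG sites, had 41.8, 18.3 and 19.5 CPM in untreated and 87.5, 69.9 and 79.2 in treated WT, and 36.4, 41.5 and 41.8 and 36.7, 55.4 and 47.2 in ft. MOM, a silencing protein that acts without a change in methylation, had L of 1.94, 1.498 and -0.00 in WT, tfl1 and ft. Of a list of 19 genes of RNA polymerases and small RNA pathways, 3 were members (DCL1, DCL3, RDR2). In edgeR's quasi-likelihood test on the 12 libraries the study analysed, 19 of the 19 were higher after FRP in WT, 17 in tfl1 and 0 in ft, where 1 was lower. The same test called 33.0%, 24.6% and 12.8% of all 21277 tested genes higher. The 19 had a median transcript of 4271 nt, against 1784.5 nt for all expressed genes, and were not compared with other genes of that length. Members within a list, here and below, were chosen on these same contrasts.

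Chromatin regulators and other general factors of transcription made up 17 genes. SWN (AT4G02020, chr4:886580-891987, plus strand), a catalytic subunit of Polycomb repressive complex 2, gave 41.8, 16.8 and 16.5 CPM in untreated and 84.5, 83.6 and 83.5 in treated WT. The tfl1 values were 12.8, 22.8 and 17.99 and 40.1, 77.2 and 52.7, and the ft values 32.8, 36.4 and 33.8 and 30.96, 45.6 and 38.3. RING1B, a subunit of Polycomb repressive complex 1, had L of 1.63, 1.45 and 0.04 in WT, tfl1 and ft. CHR17 (AT5G18620, chr5:6195689-6202168, minus strand), an ISWI-type remodelling ATPase, and HB-1, a homeobox protein known to work with ISWI remodellers, had L of 1.65 and 2.22 in WT and 1.83 and 1.69 in tfl1. CHR17 was at 54.4, 24.95 and 26.2 CPM in untreated WT and 119.6, 105 and 111 in treated WT. PKL, a CHD3-type remodeller, and the SIN3-type co-repressors SNL1 and SNL4 lay lower, with L of 1.41, 1.66 and 1.55 in WT. SUVR1 and SUVR5, proteins of the histone lysine methyltransferase family, had L of 1.40 and 2.104 in WT and 1.41 and 1.53 in tfl1. The list of chromatin regulators and co-regulators, 44 genes of which 43 were tested, held 4 members (PKL, SWN, MET1, MOM). Of the 43, 40 were higher after FRP in WT, 40 in tfl1 and 1 in ft, where 1 was lower. Of all tested genes 33.0%, 24.6% and 12.8% were called higher. The 43 had a median transcript of 4259 nt, against 1784.5 nt for all expressed genes, and were not compared with other genes of that length.

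**Figure D3:**
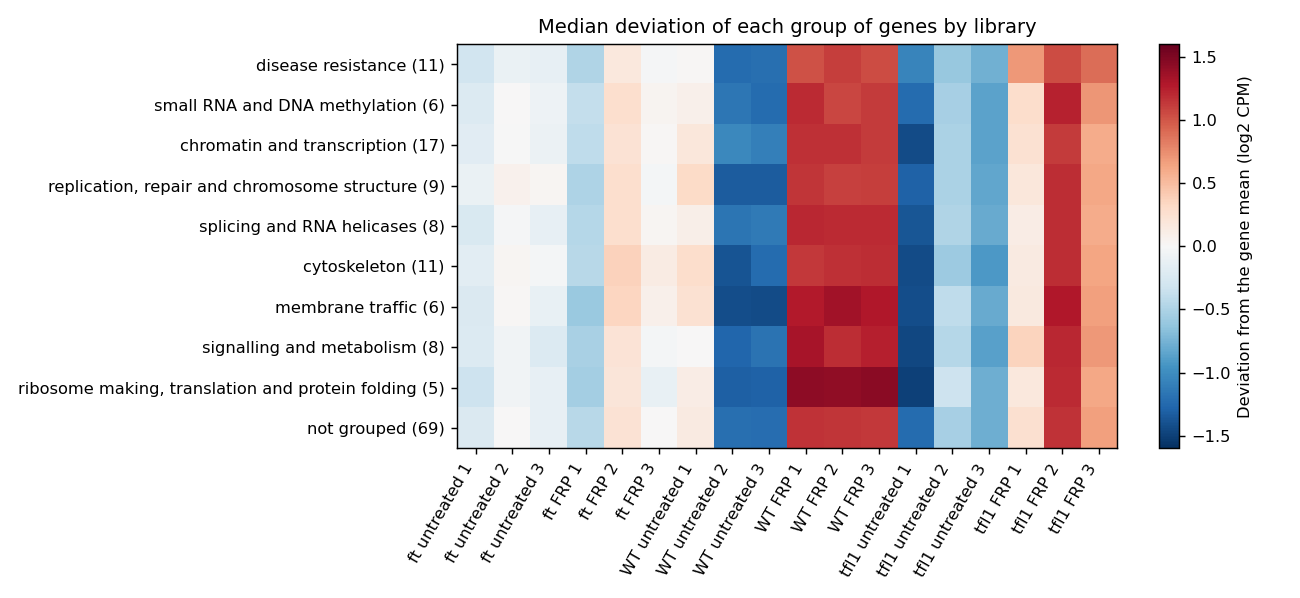
Median log2 deviation of each group of genes from its members' means, for 18 libraries, with the number of genes in brackets. Every group is low in untreated WT replicates 2 and 3 and high in treated WT.

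Genes of DNA replication, repair and chromosome structure numbered 9. ATM (AT3G48190, chr3:17801289-17828553, plus strand), the kinase that senses DNA double-strand breaks, has 77 exons and gave 50.6, 13.4 and 13.99 CPM in untreated and 111, 109 and 103 in treated WT. In tfl1 it gave 13.5, 27.8 and 21.1 and 36.7, 94.2 and 53.9, and in ft 31.97, 39.4 and 37.9 and 30.5, 54.4 and 44.5. TIL1 and ICU2, the catalytic subunits of DNA polymerases epsilon and alpha, had L of 1.88 and 1.59 in WT, 1.59 and 1.54 in tfl1, and -0.05 and -0.13 in ft. SMC5 and MIM, partners in a complex that holds sister chromatids for repair, had L of 1.48 and 1.65 in WT. The median L in ft was -0.11 in this group, against 0.09 over the 150 genes. Splicing factors and RNA helicases were 8 genes. SUS2 (AT1G80070, chr1:30117847-30127811, plus strand), the PRP8 protein at the centre of the spliceosome, had 204, 90.8 and 92.4 CPM in untreated and 503, 544 and 522 in treated WT and 173, 207 and 186 and 154, 264 and 214 in ft. Its partner helicase emb1507 had L of 1.59, 1.47 and 0.21 in WT, tfl1 and ft.

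Cytoskeletal genes numbered 11 and membrane traffic genes 6. XIK, XIJ and XIH encode class XI myosins, which move organelles along actin, and had L of 1.72, 1.83 and 1.74 in WT and 1.74, 1.64 and 1.52 in tfl1. XIK (AT5G20490, chr5:6926516-6937830, minus strand) had 68.9, 29.3 and 31.4 CPM in untreated and 137, 147 and 147 in treated WT, and its ft value of 0.25 put it at the edge of the window. POK2, a kinesin that positions the division plane, had L of 1.67 in WT and 2.099 in tfl1. MOR1 (AT2G35630, chr2:14966574-14980761, plus strand), a microtubule polymerase, gave 127, 38.5 and 38.4 CPM in untreated and 261, 258 and 257 in treated WT, 41.1, 87.5 and 64.9 and 119.8, 252 and 165 in tfl1, and 98.7, 113 and 101 and 84.2, 143 and 120.2 in ft. NET1A, NET1B and NET1C, actin-binding proteins at membranes, had L of 2.098, 2.503 and 1.76 in WT and 1.79, 1.41 and 1.40 in tfl1. SPI (AT1G03060, chr1:712440-727553, minus strand), a BEACH-domain protein of 11983 nt of transcript, had 66.7, 20.4 and 21.3 CPM in untreated and 140.3, 141 and 138 in treated WT and 15.5, 40.6 and 29.8 and 62.6, 143 and 90.2 in tfl1. Of a list of 20 cytoskeleton and wall genes, 3 were members (POK2, XIK, MOR1). Of the 20, 17 were higher after FRP in WT, 12 in tfl1 and 0 in ft, against 33.0%, 24.6% and 12.8% of all tested genes. The 20 had a median transcript of 4270 nt, against 1784.5 nt for all expressed genes, and were not compared with other genes of that length.

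The remaining lists held 1 member or none. In WT, tfl1 and ft the test on the 12 libraries called 33.0%, 24.6% and 12.8% of all tested genes higher. It called 33.4%, 21.5% and 12.6% lower. Of 17 sugar signalling genes with TPS1 as the member, 10 were higher after FRP in WT, 9 in tfl1 and 0 in ft, with 0, 2 and 1 lower. None of 25 floral and photoperiod genes, 17 clock genes, 23 light signalling genes, 67 hormone genes and 6 vesicle genes was a member. Of the floral and photoperiod genes, 22 were tested, and 14 were higher after FRP in WT, 13 in tfl1 and 8 in ft, with 1, 5 and 2 lower. Of the clock genes, 11, 9 and 9 were higher in WT, tfl1 and ft and 3, 6 and 6 lower. The light signalling genes had 17, 11 and 7 higher and 2, 5 and 6 lower, the hormone genes 47, 33 and 11 higher and 12, 12 and 3 lower, and the vesicle genes 5, 5 and 0 higher and 0, 0 and 1 lower. The sugar, floral, clock, light, hormone and vesicle lists had median transcripts of 2973, 1518, 2441, 3018, 2666 and 5347 nt. They were not compared with other genes of those lengths.

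Fewer genes of each list were called higher in WT and tfl1 with the 13 libraries. In that set, where 7.42%, 1.78% and 0.319% of all genes were called higher after FRP in WT, tfl1 and ft, the RNA polymerase and small RNA genes had 6, 0 and 0 higher, the chromatin regulators 5, 1 and 0, and the cytoskeleton and wall genes 1, 0 and 0. The sugar genes had 2, 0 and 0 higher, the floral and photoperiod genes 8, 2 and 1, the clock genes 8, 7 and 5, the light genes 5, 5 and 0, the hormone genes 15, 4 and 0 and the vesicle genes 1, 0 and 0. Without untreated WT replicate 1 as well (26.7%, 10.4% and 2.07% of all genes called higher), the RNA polymerase and small RNA genes had 19, 9 and 0 higher, the chromatin regulators 38, 10 and 0, and the cytoskeleton and wall genes 9, 3 and 0. The median log2 change of the chromatin regulators was 1.99 in WT and 1.15 in tfl1 in the 12 libraries of the study, 1.48 and 1.24 with 13, and 1.92 and 1.24 without untreated WT replicate 1 as well.

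The largest difference between WT and tfl1 was in AT5G54710, an ankyrin repeat gene, with L of 2.95 and 1.80. It had 5.52, 0.546 and 0.743 CPM in untreated and 12.9, 30.2 and 19.4 in treated WT, and 1.58, 1.98 and 1.77 and 6.72, 8.396 and 7.17 in tfl1. HSP93-III, a chloroplast Clp ATPase, followed the same order with L of 2.55 and 1.45, and AT1G70740, a protein kinase gene, the opposite one with 1.41 and 2.04. HSP93-III is overlapped over 695 bases by a gene on the other strand. The spread between libraries was wide: for HSP93-III the untreated WT libraries had 60.4, 8.91 and 13.6 CPM. BIP1, an endoplasmic reticulum chaperone, and AT1G67120, the ribosome assembly ATPase midasin, had L of 1.51 and 2.37 in WT and 1.66 and 1.52 in tfl1.

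**Figure D4:**
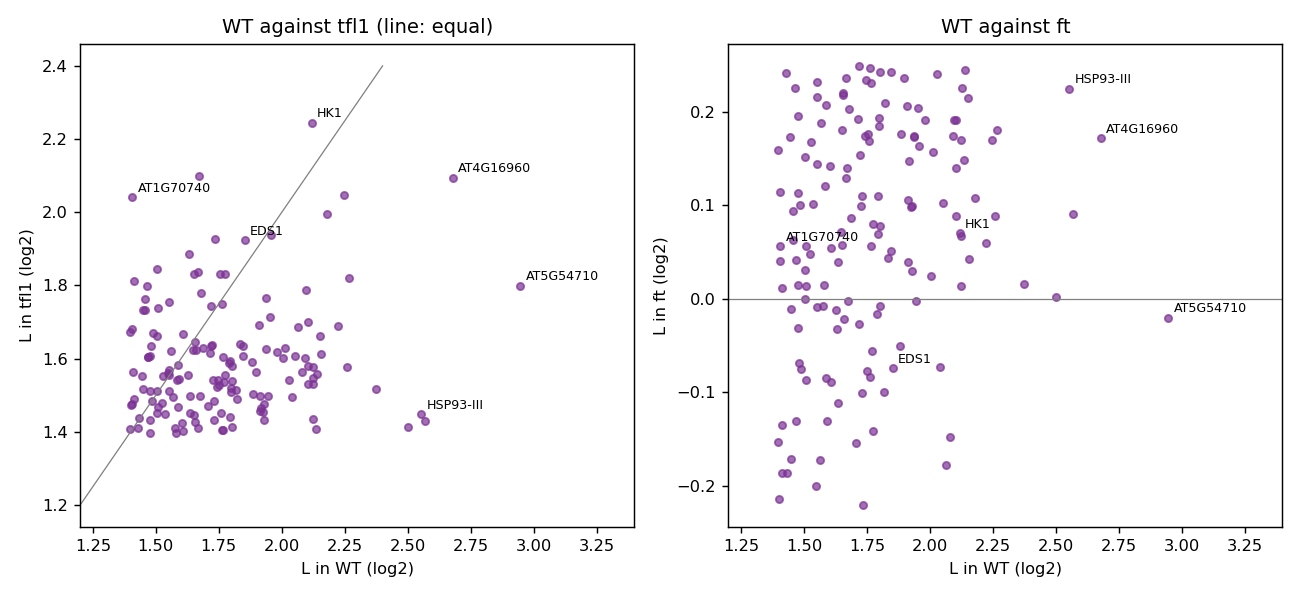
L (log2 of treated over untreated mean CPM) of the 150 genes, WT against tfl1 (left; grey line, equal values) and WT against ft (right). AT5G54710, at 2.95 in WT, and AT1G70740, at 1.41 in WT and 2.04 in tfl1, lie on either side of the line.

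What the 150 genes shared, apart from the values used to choose them, was transcript length. Their median transcript was 4311 nt long against 1784.5 nt for expressed genes, 149 of the 150 lay above that median, and they had a median of 12.5 exons against 5. No expressed gene shorter than 1000 nt was a member (0 of 1978), whereas 48 of the 282 expressed genes of at least 5000 nt were (17.02%). The slope of all expressed genes on transcript length differed between libraries, and within WT and within tfl1 it broadly followed the level of the 150 genes. In WT it was 0.42, 0.45 and 0.43 treated and 0.11, -0.47 and -0.48 untreated. In tfl1 it was -0.37, -0.16 and -0.25 untreated and 0.08, 0.45 and 0.23 treated. In ft it was -0.05, 0.04 and -0.01 untreated and -0.28, -0.02 and -0.12 treated. Replicates 2 and 3 of treated ft had lower slopes but higher levels of the 150 genes than the same-numbered untreated ones. Over all expressed genes the median L in WT rose from -0.61 under 1000 nt to 1.59 at 5000 nt and over, and in tfl1 from -0.22 to 1.34. In ft it was 0.18 and 0.06 at those ends, with -0.15 between 2500 and 3000 nt. When a smooth trend of L on length was removed from each genotype, 19 of the 150 genes were chosen again. Among these were AT5G54710, EDS1, RING1B, CYP78A9, BIP1, HK1 and NEK2. The median L of the 150 then fell to 0.72 in WT and 0.74 in tfl1, and 141 and 147 of them had values above 0. The mean L over expressed genes was added back after the removal, so 0 is not the value expected from length. Because the genes were chosen for high L in these libraries, these counts carry no test.

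**Figure D5:**
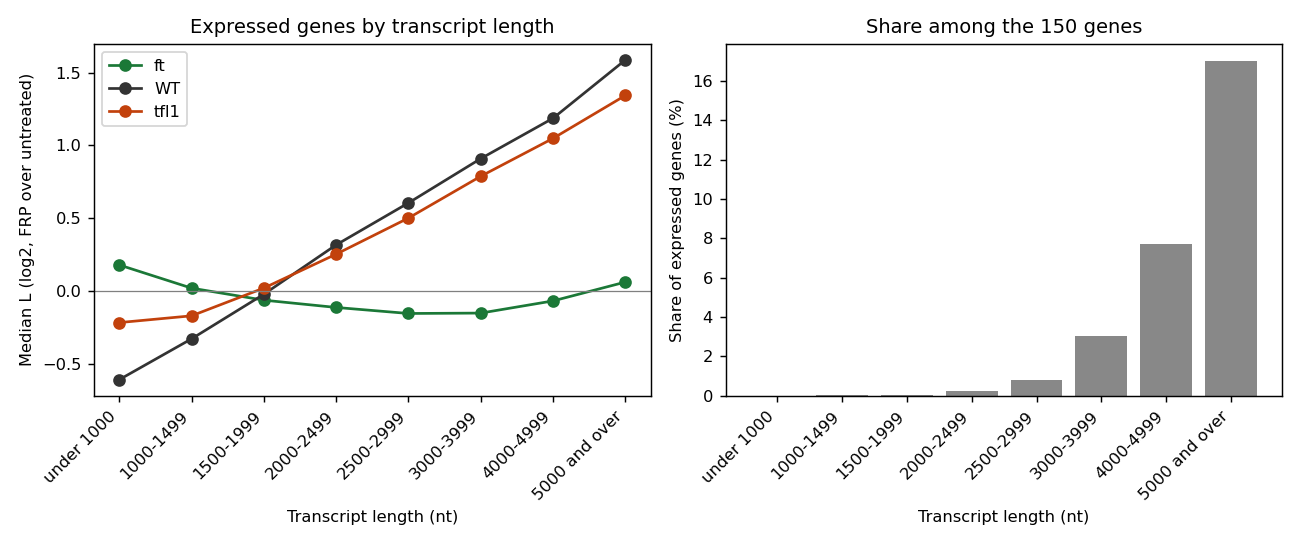
Median L of expressed genes by transcript length in ft, WT and tfl1 (left; log2) and share of expressed genes among the 150 (right; bars, %). WT runs from -0.61 to 1.59 and the share from 0 to 17.02%.

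Of the 150 genes, 149 were protein coding and 1 was a pseudogene. They lay on chromosomes 1 to 5 in numbers of 41, 18, 33, 20 and 38, and 5 pairs lay within 20 kb of each other. Another annotated gene overlapped 54 of them, and 47 genes were overlapped on the opposite strand. Of the genes described above, those with the longest such overlaps were SUVR5 (1873 and 612 bases, by different genes), TIL1 (1756 and 624), ICU2 (1326), DCL1, NET1B (716), HSP93-III and PKL (522). Ambiguous reads are not in CPM, so reads of the shared bases may be missing from their values.

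FD binds DNA at G-box motifs, CACGTG, so the 250 bases before each gene's start were searched on both strands for it. It was found in 8 of 149 protein-coding members (5.37%), against 6.49% of all 27443 protein-coding promoters and 7.59% of 16636 expressed ones. The ACGT core, which lies within the G-box, was found in 31.5% against 44.1% of all, the I-box GATAAG in 5.37% against 12.3%, the evening element AAAATATCT in 0 against 2.36%, and TATAAA in 49.0% against 47.4%. A match describes letters only. The study also assigned FD binding sites that lay within a gene, as in an exon of the floral gene LEAFY, or farther upstream. Sites outside the 250 bases were not searched, so these shares do not tell whether FD binds the members. The promoters of SWN and MOR1, a Polycomb and a microtubule gene whose G-box lies closest to the start among members described above, are shown from TAIR10.1 (RefSeq), 5′ to 3′ on the gene's strand, with the G-box in capitals. That of SWN lies at chr4:886330-886579 and that of MOR1 at chr2:14966324-14966573, both on the plus strand, and the first base of the G-box is 30 and 83 bases before the start.
SWN: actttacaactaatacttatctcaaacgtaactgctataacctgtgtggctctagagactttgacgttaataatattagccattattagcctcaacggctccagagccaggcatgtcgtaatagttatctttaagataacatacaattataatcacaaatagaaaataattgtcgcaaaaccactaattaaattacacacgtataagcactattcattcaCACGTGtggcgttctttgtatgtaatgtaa
MOR1: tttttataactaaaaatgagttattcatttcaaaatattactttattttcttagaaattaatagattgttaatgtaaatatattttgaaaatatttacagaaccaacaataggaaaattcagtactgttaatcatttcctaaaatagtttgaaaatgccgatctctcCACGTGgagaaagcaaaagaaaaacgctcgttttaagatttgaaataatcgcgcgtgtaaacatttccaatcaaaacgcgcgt

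The mutants were compared with WT within each condition. These comparisons use the same libraries as the choice of genes, and those with a common WT group share its libraries, so the calls are a description. The share of all genes at an unadjusted p under 0.05 was not computed. Counts of the 150 genes at that threshold, here and below, thus have no background to be read against. In the test on the 12 libraries, with an adjusted p of at most 0.005 (Benjamini-Hochberg over all 21277 genes), 123 of the 150 genes were higher in untreated ft than in untreated WT, against 20.6% of all genes called higher and 39.9% called in either direction, and the median log2 difference was 1.05. With all 18 libraries none was called, against 0.410% of all genes, with 4 of the 150 at an unadjusted p under 0.05, and the median was 0.46. Without untreated WT replicate 1 (17 libraries) 72 were called higher, against 17.6% of all genes called higher and 35.1% in either direction. With 13 libraries none was called, against 0.00470% of all genes, 1 had an unadjusted p under 0.05 and the median was 0.48. Without untreated WT replicate 1 as well, 1 was called higher, against 1.43% higher and 1.97% in either direction. In that set 117 had an unadjusted p under 0.05 and the median was 1.05. NEK2, a NIMA-related kinase, NET1B and DUO3, a homeodomain protein needed for germ cell division, had the largest differences, with log2 values of 2.91 ± 0.20, 2.76 ± 0.47 and 2.70 ± 0.35 (SE). The 12 libraries leave out untreated WT replicate 1, in which NEK2 had 29.3 CPM against 3.02 and 2.45 in replicates 2 and 3 and 19.6 to 23.2 in untreated ft. With all 18 libraries the differences of NEK2, NET1B and DUO3 were 0.88 ± 0.59, 0.95 ± 0.70 and 1.09 ± 0.58, and none was called. NET1B and NEK2 are overlapped by genes on the opposite strand.

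Between untreated tfl1 and untreated WT, 6 of the 150 genes were higher and none lower in the 12 libraries, with a median of 0.10. Of all genes 11.8% were called higher and 24.5% in either direction. DUO3, NEK2 and HSP93-III differed most, by 1.94 ± 0.37, 1.89 ± 0.21 and 1.32 ± 0.29, and by 0.70 ± 0.58, 0.11 ± 0.60 and 0.38 ± 0.52 with all 18 libraries. With all 18 libraries none was called, against 6.81% of all genes, with 6 of the 150 at an unadjusted p under 0.05, and the median turned to -0.26. With 17 libraries 7 were called higher, against 11.8% higher and 24.3% in either direction, and the median was 0.33. With 13 libraries none was called, against 0.395%, with 0 at an unadjusted p under 0.05 and a median of -0.23. Without untreated WT replicate 1 as well 1 was called higher, against 1.89% higher and 2.71% in either direction. In that set 20 had an unadjusted p under 0.05 and the median was 0.36.

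After FRP, all 150 genes were lower in ft than in WT in the 12 libraries, where 27.0% of all genes were called lower and 53.1% in either direction, with a median of -1.33. AT5G54710 differed most, by -2.79 ± 0.22, and by -3.18 ± 0.54 with all 18 libraries. With all 18 libraries 44 were called lower, against 14.3% of all genes called lower and 32.9% in either direction. In that set 145 had an unadjusted p under 0.05 and the median was -1.17. With 17 libraries 140 were called lower, against 27.8% lower and 55.1% in either direction. With 13 libraries 1 was called lower, against 0.0705% lower and 0.916% in either direction. Of the 150, 91 then had an unadjusted p under 0.05 and the median was -1.19. Without untreated WT replicate 1 as well, 16 were called lower, against 4.82% lower and 14.7% in either direction. In that set 146 had an unadjusted p under 0.05 and the median was the same, -1.19. The 3 treated ft libraries lay below the 3 treated WT libraries in all 150 genes, against 44.2% of expressed genes. Treated tfl1 was lower than treated WT in 29 genes (6.53% of all genes were called lower and 12.9% in either direction), with a median of -0.77, and ATM, AT5G54710 and HSP93-III differed most, by -1.28 ± 0.21, -1.27 ± 0.19 and -1.21 ± 0.26, and by -0.82 ± 0.43, -1.51 ± 0.49 and -0.74 ± 0.51 with all 18 libraries. With all 18 libraries none was called, against 2.67% of all genes, with 4 at an unadjusted p under 0.05 and a median of -0.46. With 17 libraries 1 was called lower, against 2.8% lower and 7.19% in either direction. With 13 libraries none was called, against 0.117%, with 0 at an unadjusted p under 0.05 and a median of -0.40. Without untreated WT replicate 1 as well none was called, against 0.611%, with 3 at an unadjusted p under 0.05 and the same median of -0.40. All 3 treated tfl1 libraries lay below all 3 treated WT libraries in 53 genes, and WT exceeded tfl1 in this way in 15.7% of expressed genes.

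In the same model the FRP contrasts, which chose the genes, called 150 genes in WT, 148 in tfl1 and 0 in ft, none lower. Of all genes they called 33.0%, 24.6% and 12.8% higher, and 66.3%, 46.1% and 25.4% in either direction. With all 18 libraries they called 140, 118 and 0, none lower. The shares of all genes were then 24.5%, 18.2% and 5.43% higher, and 52.6%, 35.6% and 11.9% in either direction. On the 12 libraries, 5 of the 150 were at an unadjusted p under 0.05 in ft, and DESeq2 called 0 there. With 17 libraries the FRP contrasts called 150, 148 and 0, none lower. The shares were 33.5%, 27.7% and 11.6% higher, and 68.4%, 52.7% and 25.2% in either direction. With 13 libraries they called 12, 2 and 0, none lower. The shares were 7.42%, 1.78% and 0.319% higher, and 18.7%, 7.15% and 0.517% in either direction. The medians were 1.69, 1.56 and 0.08, with 148, 138 and 0 genes at an unadjusted p under 0.05. Without untreated WT replicate 1 as well they called 147, 69 and 0, none lower, with medians of 2.31, 1.57 and 0.08. The shares were 26.7%, 10.4% and 2.07% higher, and 53.4%, 22.5% and 3.95% in either direction.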

How the data were processed

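Single-end mRNA reads of 18 libraries (6 conditions, 3 replicates each) had been aligned with STAR 2.5.3a and counted per gene with HTSeq 0.7.2, per the labels. The deposited values are raw counts per gene, used as they stand. The members and gene lists were chosen with earlier results of these data known. Genes reaching 10 counts in 2 or more libraries entered a quasi-likelihood fit with edgeR 4.0.16 (TMM, all 6 conditions in 1 model, R 4.3.3) on the 12 libraries that the labels mark as analysed, 2 a condition, at an adjusted p of at most 0.005. The script for this test was tested on simulated data. Genes named in the text are the first-ranked members, members of the gene lists, the largest differences and the genes at the limits. Some other members were named, and members grouped by role, after their values were seen. Positions and transcript lengths are from TAIR10.1, where 37051 of 37336 IDs matched. Alternatives were other library sets, DESeq2 1.42.0, other scalings, filters and thresholds, each library left out, and for the rule other pseudocounts, windows, CPM minimums and a spline on log2 length (5 degrees of freedom). Replicate labels do not say how the replicates were grown.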

Additional observations from a re-analysis of the deposited data

How the results depend on the processing

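Of the 150 genes, 68 were chosen again from the 12 libraries alone, 77 with a window in ft of 0.5, 65 with a window of 0.1, 19 after removal of the length trend, and 74 to 148 with each of the 18 libraries left out (74 without ft_FRP replicate 1). The median L fell to 0.72 in WT and 0.74 in tfl1 after removal of that trend. With each library left out it ranged from 1.51 to 2.36 in WT, 1.30 to 1.78 in tfl1 and -0.09 to 0.25 in ft.

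With each of the 12 libraries left out, the members called numbered 150 to 150 for FRP in WT, 131 to 150 in tfl1 and 0 to 0 in ft, 1 to 11 for untreated tfl1, 55 to 135 for untreated ft (55 without WT_untreated replicate 2), 0 to 86 for treated tfl1 (0 without WT_FRP replicate 3) and 127 to 150 for treated ft, each against WT. The median differences ranged from -0.14 to 0.36, 1.01 to 1.11, -0.95 to -0.55 and -1.56 to -1.12 in that order of mutant comparisons. Each of these fits left 1 library in the condition concerned, so its calls rest on the spread in the other conditions. The share of all genes called also differed between these fits. The ranges of members called are therefore not a property of the 150 genes alone, and only the median differences are to be read as effect sizes.

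Shares of all genes called in either direction follow the counts in brackets. At an adjusted p of at most 0.05 the calls were 3 for FRP in ft (45.6%), 25 for untreated tfl1 (45.7%) and 131 for treated tfl1 (37.9%). A 2-fold minimum left 81 for untreated ft (6.92%) and 7 for treated tfl1 (3.02%). A filter of 1 count in total gave 16 and 98 for untreated and treated tfl1 (20.3% and 14.2%), and DESeq2 gave 18 and 83 (25% and 18.1%). A fit of the 2 groups alone gave 7 for treated tfl1 (2.87%). All 18 libraries gave 0 for untreated tfl1 (6.81%), 0 for untreated ft (0.410%) and 0 for treated tfl1 (2.67%). For treated ft they gave 44 (32.9%, with 14.3% lower). Without WT_untreated replicate 1 (17 libraries, chosen after seeing the data) untreated ft gave 72 (35.1%) and treated tfl1 gave 1 (7.19%).

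The next sets were also chosen after seeing the data. The 13 libraries without replicate 3 of 5 conditions gave 12 for FRP in WT (18.7%) and 2 in tfl1 (7.15%). Against WT they gave 0 for untreated tfl1 (0.395%), 0 for untreated ft (0.00470%), 0 for treated tfl1 (0.117%) and 1 for treated ft (0.916%). The 13 less WT_untreated replicate 1 gave 147 for FRP in WT (53.4%) and 69 in tfl1 (22.5%). Against WT they gave 1 for untreated tfl1 (2.71%), 1 for untreated ft (1.97%) and 0 for treated tfl1 (0.611%). For treated ft they gave 16 (14.7%, with 4.82% lower). The median for untreated ft was 0.46 with 18 libraries, 0.48 with 13 and 1.18 with library totals. That for treated tfl1 was -0.46 with 18, -0.46 with 17, -0.40 with 13 and -0.40 with those less WT_untreated replicate 1. The causes were not tested.

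Same-numbered libraries deviated together for replicates 1 and 2 of ft and tfl1 (correlations from 0.44 to 0.58) but not for those of WT (-0.23 and -0.09). For replicate 3 the correlations were -0.06 to 0.02. Replicate 3 was close to a mix of replicates 1 and 2 in 5 conditions, which leaves it little deviation, so these values cannot tell whether it was paired. The main test did not take the numbers as pairs. The median for FRP in ft on the 12 libraries was -0.10 without a replicate block and 0.08 with it. With the replicate block the 12 libraries gave 22 for untreated tfl1 (26.5% of all genes) and 124 for treated tfl1 (22.2%). All 18 with the replicate block gave 0 for untreated tfl1 (5.92%), 0 for untreated ft (0.289%) and 0 for treated tfl1 (2.2%). For treated ft they gave 32 (28.4%, with 11.7% lower).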
